A study of Mus musculus with 6 samples.

Results

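The genes described here are 41 mouse genes for molecular chaperones of the cytosol and the mitochondrion, with the co-chaperones that work with them and the heat shock regulator Hsf1. They were listed by symbol, and each was found as 1 of the 23203 loci of the deposited expression table. Their roles divide them into Hsf1, 6 HSP70 and HSP110 genes, 9 HSP90 genes and co-chaperones, 7 HSP40 (J-domain) genes, 3 BAG and small heat shock protein genes, 8 subunits of the chaperonin TRiC, and 7 mitochondrial genes. Of the 41, 38 had a mean of at least 1 FPKM (fragments per kilobase of transcript, scaled to library size) over all libraries and entered the test. The other 3, Hspa1a, Hspa1b and Hspb1, did not.

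The cells were naive mouse CD4 T cells kept for 48 h under conditions that drive them to become Th17 cells, the helper T cells that secrete IL-17. Every culture was stimulated with anti-CD3e fixed to the plate (10 µg/ml) plus anti-CD28 (1 µg/ml), and every culture received IL-23 at 10 ng/ml, IL-6 at 20 ng/ml and TGFb1 at 2.5 ng/ml as cytokines. Either DMSO as vehicle or 250 µM 2DG, the glucose analogue 2-deoxyglucose that inhibits glycolysis, was present, with 3 RNA libraries for each. Whether the 3 libraries are from different mice or wells is not stated in the labels. The error behind each p-value is therefore that between libraries and may be technical only. The sample titles carry the numbers 17, 42 and 43 in both groups, and what these mark is not stated.

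Chaperones bind unfolded protein chains and help them fold. HSP70 takes up short hydrophobic stretches in an ATP cycle that HSP40 proteins start and nucleotide exchange factors reset, HSP90 finishes clients such as kinases and steroid receptors, and TRiC encloses actin and tubulin in a chamber. Unfolded protein in the cytosol frees HSF1 to bind heat shock elements, arrays of the unit GAA and its reverse complement TTC, in the promoters of genes such as Hspa1a and Hspb1, whereas unfolded protein in the endoplasmic reticulum (ER) acts through other sensors on a separate gene set. 2DG also enters the mannose branch that supplies N-glycosylation in the ER, so chaperones of the different compartments can be read side by side in these cells.

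The heat shock element is shown first because it is the sequence that HSF1 binds. The RefSeq promoter table (GRCm38.p6) held 33 of the 41 genes, and the 250 bases before each start were searched on both strands for 2 joined units, GAANNTTC or TTCNNGAA. The inducible genes Hspa1a (an HSP70, chr17:34972223-34972290, minus strand) and Hspb1 (a small heat shock protein, chr5:135887772-135887859, plus strand) are shown with 30 bases on each side of the matches. The Hspe1 match (chr1:55088053-55088082, plus strand) has 4 units in a row and is shown with 6 bases on each side, since it lies over an annotated exon of Hspd1 on the other strand. Capitals mark the matched units.

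Hspa1a: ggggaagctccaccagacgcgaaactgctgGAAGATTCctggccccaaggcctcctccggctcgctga

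Hspb1: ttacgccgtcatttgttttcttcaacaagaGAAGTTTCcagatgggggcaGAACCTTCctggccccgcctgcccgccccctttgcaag

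Hspe1: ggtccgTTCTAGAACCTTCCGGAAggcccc

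The stretch printed for Hspa1a is the same, letter for letter, in Hspa1b (chr17:34959305-34959372, minus strand), and the whole windows of this gene pair were identical at 247 of 250 positions (98.8%). The match before Hspa1a began 104 bases upstream of the gene's start, and the first of the Hspb1 matches 117 bases upstream. At least 1 match of 2 units lay in a window of 13 of the 33 genes (39.4%), against 14.5% of the 27025 genes in the table. Some genes have several windows, and any of them counted. By window, the shares were 34.9% of 43 and 12.8% of 32851. The 13 count the near-identical Hspa1a and Hspa1b apart, and also Hspd1 and Hspe1, whose windows overlap, so they are not all independent. A run of 3 or more alternating units, each separated by any pair of bases, lay before 3 of the 33 genes (9.09%, Dnajb6 and the head-to-head genes Hspd1 and Hspe1, which share the element) and before 0.514% of all genes. A match describes letters only, and its use in these cells was not measured.

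The label was checked on marker genes. The T cell and Th17 markers Cd3e, Cd4, Il17a and Il17f were above 1 FPKM in every library, with summed levels of 1807 to 2046 FPKM in vehicle and 2368 to 3058 FPKM in 2DG libraries. The summed levels of 5 B cell and 5 myeloid markers were at most 3.71 and 2.59 FPKM in any library, and those of 2 CD8 markers at most 5.51 FPKM. Of 4 NK cell markers 2 were at 0 throughout and Ncr1 was at 0 in every 2DG library, so their sum (0.976 to 2.86 FPKM in vehicle and 4.45 to 7.56 FPKM in 2DG libraries) was nearly all Nkg7. Values rest on FPKM with no read totals, so depth is unknown beyond rough relative estimates of 0.415 to 1.11. In such bulk values, fewer cells of a type and less RNA per cell cannot be told apart.

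None of the 38 tested chaperone genes passed the test in either direction. With limma on log2(FPKM + 1) and Benjamini-Hochberg adjustment over all 10228 tested loci, 0 were higher and 0 were lower with 2DG at an adjusted p under 0.05, where 2.72% of all tested loci were called. At an unadjusted p under 0.05 there was 1 of the 38 (the Dnaja1 row, described last), where 17.9% of all tested loci lay. A log2 fold change of 1 or more in size was seen for the Dnaja1 row alone, 1 of the 38, and for 2.57% of all tested loci. The median log2 fold change of the 38 was -0.02, beside -0.01 for all tested loci, and the median size of the change was 0.06 on the log2 scale, beside 0.13. Apart from Dnaja1, the fold changes of the other 37 ran from -0.25 (Cdc37) to 0.15 (Hspa9).

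The intervals show what size of change the libraries could still hold. For all 37 genes the 95% interval of the fold change of FPKM + 1 lay within a 1.5-fold change either way. For 32 it lay within 1.3-fold, while the first was true of 74.2% of all tested loci. For a low gene such as Bag3, at a mean of 1.95 FPKM, the added 1 makes the interval narrower than that of FPKM itself. The genes are also highly expressed: 21 of the 38 (55.3%) had a mean above 100 FPKM, as did 8.39% of all tested loci, and their median level was 118.8 FPKM beside 14.7 FPKM. Their median coefficient of variation within a group was 7.06%, beside 11.1% for all tested loci. Vehicle and 2DG libraries did not overlap for 5 of the 37 (13.5%), and for 23.7% of all tested loci. By direction, 1 of the 37 (Hspa9) was higher in all 2DG libraries, as were 11.9% of all tested loci, and 4 (Stip1, Fkbp4, Cct7 and Trap1) were lower, as were 11.8%.

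**Figure D1:**
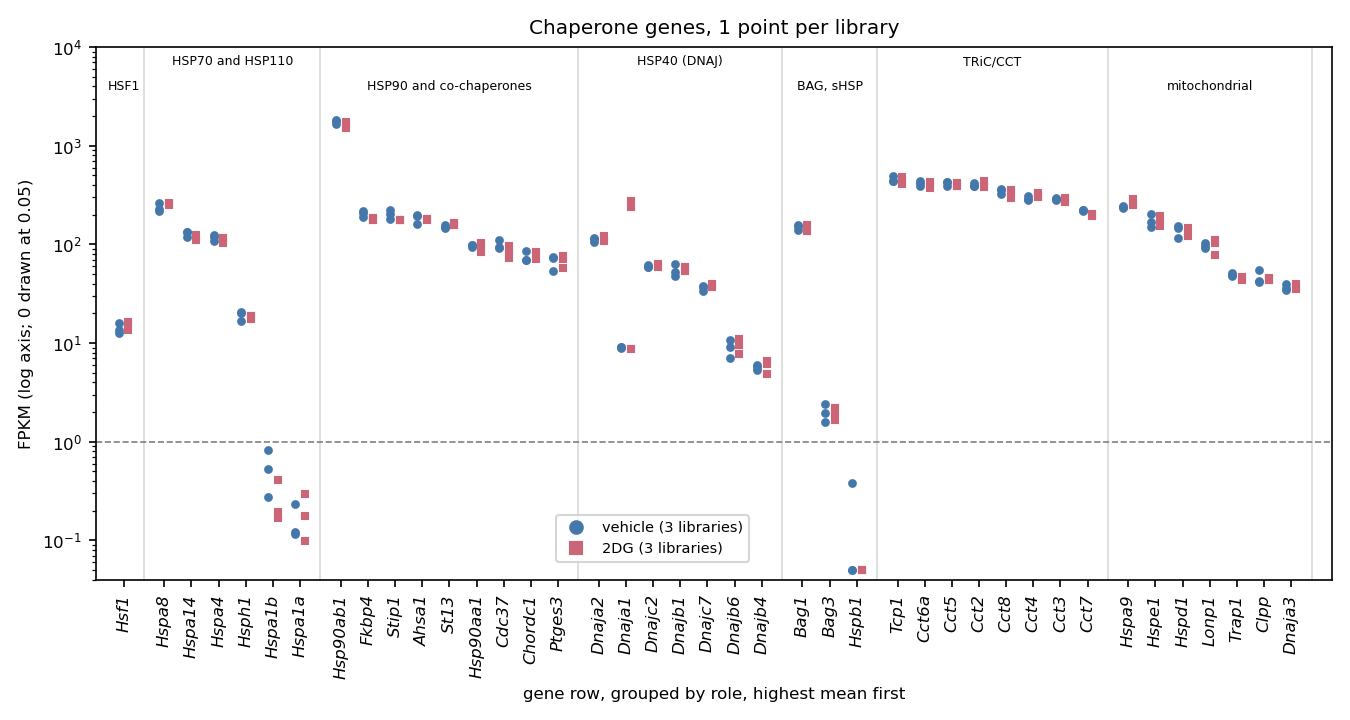
Level of each of the 41 genes in FPKM on a log axis, by role, with 1 point per library (circles vehicle, squares 2DG, 3 each), the dashed line at 1 FPKM marking the minimum mean for the test. Levels run from Hspb1, at 0 in 5 libraries, to Hsp90ab1, at 1516 FPKM or more, and the Dnaja1 row has 2 squares far above its other points; Hspa1a, Hspa1b and Hspb1, all below the dashed line, also scatter on this axis.

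Hsf1, the transcription factor that switches on heat shock genes, was at 13.7, 12.8 and 16.0 FPKM in vehicle and 15.5, 16.4 and 13.6 FPKM in 2DG libraries. The groups overlapped, and the log2 fold change was 0.10 ± 0.11 (SE, limma, adjusted p = 0.708). Levels of its inducible targets Hspa1a, Hspa1b and Hspb1 were near 0. Hspa1a, one of the stress-induced HSP70 genes, was at 0.120, 0.116 and 0.233 FPKM in vehicle and 0.297, 0.177 and 0.0991 FPKM with 2DG, which are overlapping ranges. Hspa1b, its neighbour on the same chromosome, was at 0.278, 0.830 and 0.525 FPKM in vehicle and 0.193, 0.408 and 0.169 FPKM with 2DG. The ranges again overlapped, and since the pair is nearly identical in sequence, the division of reads between them is uncertain. Hspb1, a small heat shock protein that holds unfolded chains, was listed at 0 in every library but vehicle replicate 3 (0.380 FPKM), and an exact 0 in this table can be a failed estimate.

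By FPKM, a scale per transcript length, Hspa8 (chr9:40800984-40810087, plus strand) was the highest of the 6 listed HSP70 and HSP110 genes. It is the constitutive HSP70 of the cytosol. It stood at 217, 260 and 227 FPKM in vehicle and 261, 256 and 253 FPKM in 2DG libraries. Among the 2DG libraries, replicate 1 lay just above the vehicle range and the others near its upper end. The log2 fold change was 0.13 ± 0.09 (SE, limma, adjusted p = 0.505). The FPKM of Hspa8 was 275 to 944 times that of Hspa1a and Hspa1b together, over the 6 libraries, a ratio set mainly by the low values of that pair. Hspa14, a ribosome-associated HSP70, was at 134.9, 132.8 and 119.5 FPKM in vehicle and 113.5, 111.1 and 123.8 FPKM with 2DG. Its log2 fold change of -0.15 ± 0.08 (SE, limma, adjusted p = 0.408) was that of smallest p in its role, and the groups overlapped. The HSP110 genes Hspa4 and Hsph1, whose products exchange nucleotide on HSP70, had log2 fold changes of -0.07 and -0.05. Hspa4 had a mean of 115 FPKM and Hsph1 of 18.8 FPKM over all libraries, and their ranges did not overlap.

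Hsp90ab1 (chr17:45567775-45573271, minus strand), the constitutive cytosolic HSP90, had the highest level of all 41 genes, at 1773, 1809 and 1657 FPKM in vehicle and 1516, 1688 and 1726 FPKM in 2DG libraries. The groups overlapped and the log2 fold change was -0.09 ± 0.11 (SE, limma, adjusted p = 0.730). Hsp90aa1, the inducible form, was at 99.4, 94.1 and 99.6 FPKM in vehicle and 96.0, 83.7 and 102.2 FPKM with 2DG, a log2 fold change of -0.06 ± 0.09 (SE, limma, adjusted p = 0.786). The ratio of Hsp90ab1 to Hsp90aa1 was 16.6 to 19.2 in vehicle and 15.8 to 20.2 in 2DG libraries, so that the balance between both forms overlapped between groups as well.

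Among the HSP90 co-chaperones, Cdc37, which loads kinases, had the largest size of change of the 37 genes. It was at 91.6, 109.5 and 95.1 FPKM in vehicle and 72.2, 96.3 and 81.0 FPKM with 2DG, a log2 fold change of -0.25 ± 0.12 (SE, limma, adjusted p = 0.350). One 2DG library, replicate 2, lay inside the vehicle range. Fkbp4, the immunophilin of steroid receptor complexes, was at 188.7, 219.5 and 207.2 FPKM in vehicle and 177.1, 178.3 and 183.3 FPKM with 2DG. All 3 vehicle libraries lay above all 3 2DG libraries, yet its log2 fold change of -0.19 ± 0.08 (SE, limma) did not pass the test (adjusted p = 0.291). Stip1, which bridges HSP70 and HSP90, was likewise apart, with 181.6, 223.2 and 203.0 FPKM in vehicle and 175.9, 175.8 and 176.7 FPKM with 2DG, and a log2 fold change of -0.20 ± 0.09 (SE, limma, adjusted p = 0.323). The ATPase activator Ahsa1, the HSP70 partner St13, the p23 gene Ptges3 and Chordc1 had log2 fold changes of -0.04, 0.08, 0.03 and 0.08.

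Of the HSP40 genes, whose J domain starts the ATP cycle of HSP70, the 6 other than Dnaja1 had log2 fold changes of 0.02 to 0.08. Dnajb1, the heat-inducible member, was at 48.1, 63.7 and 52.6 FPKM in vehicle and 53.5, 59.0 and 57.7 FPKM with 2DG. The vehicle range enclosed the 2DG range, with a log2 fold change of 0.06 ± 0.11 (SE, limma, adjusted p = 0.834). Dnaja2 was the highest of the 6 (106 to 123 FPKM over all libraries), followed without overlap by Dnajc2 and Dnajb1, then Dnajc7 (33.6 to 39.8 FPKM), Dnajb6 (7.05 to 11.1 FPKM) and Dnajb4 (4.89 to 6.60 FPKM). Dnajc2 (58.8 to 63.8 FPKM), which works at the ribosome, overlapped with Dnajb1. Bag1, an exchange factor that couples HSP70 to the proteasome, was at 140.9, 153.8 and 157.1 FPKM in vehicle and 155.3, 135.7 and 137.0 FPKM with 2DG, a log2 fold change of -0.08 ± 0.09 (SE, limma, adjusted p = 0.701). Bag3, the stress-inducible BAG gene that serves selective autophagy, stayed low at 1.94, 2.40 and 1.59 FPKM in vehicle and 1.90, 1.67 and 2.21 FPKM with 2DG, and the ranges overlapped.

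TRiC is a ring of 8 different subunits present in equal number, and the RNA levels of its genes were of like size. By mean FPKM over all libraries, Tcp1 (450), Cct6a (409), Cct5 (407) and Cct2 (402) came first and overlapped with their neighbours. Cct8 (339), Cct4 (303) and Cct3 (284) followed without overlap with Cct2, and Cct7 (211) stood below every library of Cct3. The highest subunit was 1.94 to 2.38 times the lowest within a library.

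None of the 8 subunit genes passed the test. As 2.72% of all tested loci were called, a 0 among so few genes says little. Their log2 fold changes ran from -0.14 (Cct7) to 0.11 (Cct4). Tcp1 was at 498, 434 and 439 FPKM in vehicle and 432, 410 and 487 FPKM with 2DG, which overlap widely (log2 fold change -0.05 ± 0.10, SE, limma, adjusted p = 0.861). Cct7 was at 218.8, 223.2 and 220.9 FPKM in vehicle and 194.6, 204.0 and 204.7 FPKM with 2DG. Its groups did not overlap, and the log2 fold change was -0.14 ± 0.07 (SE, limma, adjusted p = 0.366). The summed level of all 8 subunits was 2755 to 2927 FPKM in vehicle and 2623 to 2963 FPKM in 2DG libraries.

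In the mitochondrion, Hspa9 (mortalin) pulls imported chains into the matrix, Hspd1 and Hspe1 form the folding chamber and its lid, Trap1 is the HSP90, Dnaja3 the J-domain partner, and Lonp1 and Clpp degrade what cannot be folded. None of these 7 genes passed the test, where 2.72% of all tested loci were called, so a 0 among so few genes says little. Hspa9 was at 236.8, 233.6 and 243.8 FPKM in vehicle and 247.9, 259.3 and 286.2 FPKM with 2DG. All 3 2DG libraries lay above the vehicle range, by a log2 fold change of 0.15 ± 0.08 (SE, limma, adjusted p = 0.411). Hspd1 (chr1:55077835-55088243, minus strand) was at 147, 117 and 152 FPKM in vehicle and 132, 123 and 145 FPKM with 2DG (log2 fold change -0.05 ± 0.12, SE, limma, adjusted p = 0.871). Hspe1 (chr1:55088132-55091307, plus strand), whose start lies in the same promoter region, was at 202, 149.9 and 169.6 FPKM in vehicle and 181, 155 and 195 FPKM with 2DG (log2 fold change 0.03 ± 0.14, SE, limma, adjusted p = 0.935). The ratio of Hspe1 to Hspd1 lay between 1.11 and 1.37 in all 6 libraries, with no separation of the groups.

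Lonp1, the AAA protease of the matrix, was at 96.8, 103.4 and 91.3 FPKM in vehicle and 78.7, 110.2 and 102.3 FPKM with 2DG. The 2DG libraries reached both below and above the vehicle range (log2 fold change -0.01 ± 0.13, SE, limma, adjusted p = 0.973). Trap1 was at 48.7, 50.7 and 47.4 FPKM in vehicle and 45.7, 47.2 and 43.5 FPKM with 2DG, without overlap and with a log2 fold change of -0.10 ± 0.07 (SE, limma, adjusted p = 0.513). Clpp and Dnaja3 had log2 fold changes of -0.05 and 0.01.

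**Figure D2:**
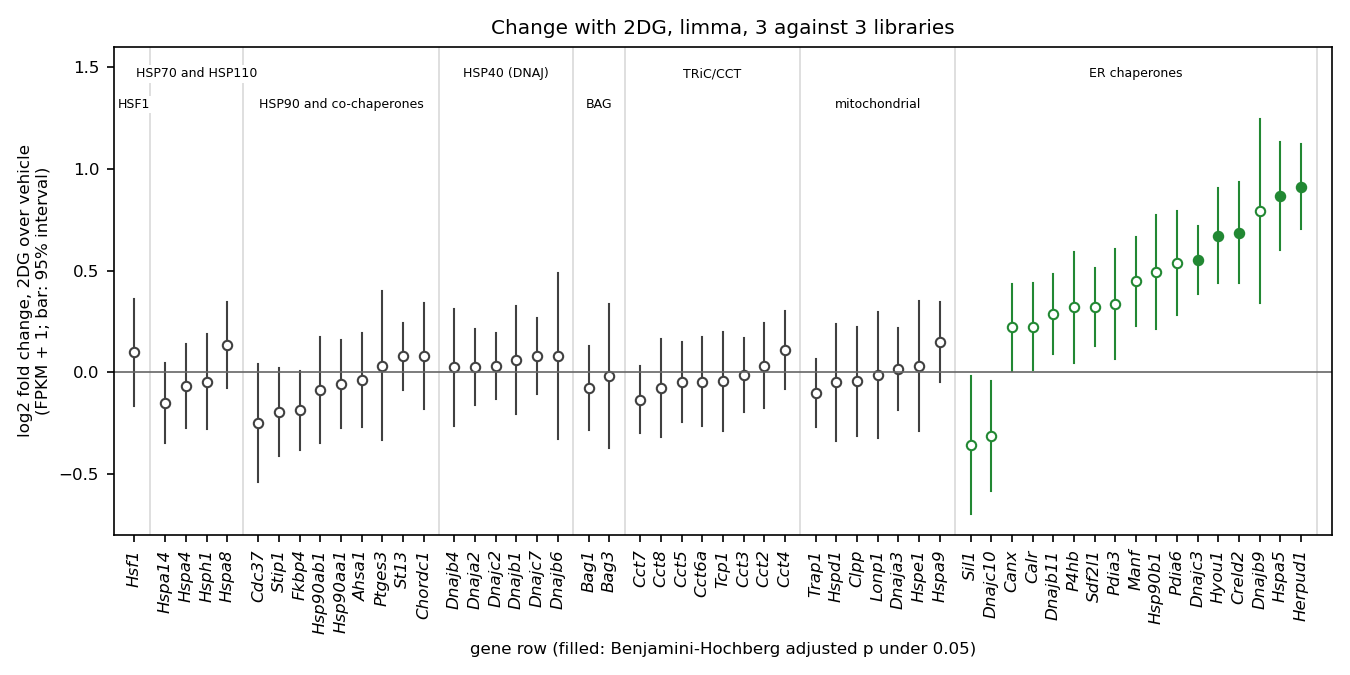
Log2 fold change of 2DG over vehicle on log2(FPKM + 1), with its 95% interval, from limma on 3 against 3 libraries. Grey points are the 37 tested chaperone genes other than Dnaja1, by role. Green points are 17 chaperone genes of the ER, without Pdia4, whose row also names a microRNA gene. Filled points have an adjusted p under 0.05; all 37 grey points are open and lie between -0.25 and 0.15, and 5 green points are filled.

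Fold changes were also set beside the promoter matches. The 9 tested genes with a match of 2 units, Dnaja1 left out, had a median log2 fold change of -0.05 (range -0.25 to 0.08), and the 20 tested genes whose windows held none had a median of -0.04 (range -0.20 to 0.08). These medians are a description with no test. They leave out Hspa1a, Hspa1b and Hspb1, which have a match but were not tested. They also leave out genes absent from the promoter table, such as Hspa8, Hsp90aa1 and Hsp90ab1. The heat-inducible Dnajb1 is among the genes without a match. The medians therefore do not describe heat shock genes as a whole.

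A wider list of chaperone genes outside the 41 was read in the same fit. It held 80 further HSP70, HSP40, HSP90, prefoldin, small heat shock protein and mitochondrial genes, of which 71 were tested. With limma, 1 was higher and 0 were lower at an adjusted p under 0.05, where 1.53% and 1.19% of all tested loci were called, and their median log2 fold change was -0.05. The single call was Dnajc3, at 30.5, 33.3 and 32.7 FPKM in vehicle and 48.6, 46.7 and 47.6 FPKM with 2DG (log2 fold change 0.55 ± 0.07, SE, limma, adjusted p = 0.0156). Its product is an HSP40 of the ER lumen and inhibitor of the kinase PERK, so that it is an ER chaperone placed in a list of mostly cytosolic genes. The call was lost without 2DG replicate 1, without 2DG replicate 2, with replicates 2 and 3 only, with libraries set to an equal sum and with no filter on low values.

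By list, the 1 call lay among 24 tested HSP70, HSP40 and exchange factor genes. There were 0 calls among 4 tested HSF and small heat shock protein genes and 16 genes listed with HSP90 co-chaperones. The 9 prefoldin and TRiC cofactor genes and 18 mitochondrial genes also held 0. Across all tested loci 2.72% were called, so a 0 in lists this small says little. The 16 include Hsp90b1, itself an HSP90 of the ER. Both Hsp90b1 and Dnajc3 are also counted among the ER chaperone genes described next. At an unadjusted p under 0.05 the whole list held 10 of 71, where 17.9% of all tested loci lay.

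ER chaperones were then set beside the cytosolic and mitochondrial genes of the same families. Of 18 tested ER chaperone genes, 5 rose with 2DG and 0 fell (Hspa5, Hyou1, Dnajc3, Creld2 and Herpud1, limma, adjusted p under 0.05), where 1.53% of all tested loci were called higher and 1.19% lower. The median log2 fold change of the 18 was 0.47, and 16 of them lay above 0. Without the Pdia4 row, which also names the microRNA gene Mir704, the median was 0.45. The other 2, Sil1 and Dnajc10, were lower in every 2DG library. Their log2 fold changes were -0.36 and -0.31 (limma, adjusted p = 0.252 and 0.210). Hspa5, the HSP70 of the ER lumen known as BiP, was at 398, 342 and 356 FPKM in vehicle and 636, 615 and 754 FPKM with 2DG, with every 2DG library above every vehicle library. Its log2 fold change was 0.87 ± 0.11 (SE, limma, adjusted p = 0.0159). Hsp90b1, the HSP90 of the ER known as GRP94, was at 275, 224 and 250 FPKM in vehicle and 335, 322 and 401 FPKM with 2DG, also apart, with a log2 fold change of 0.49 ± 0.12 (SE, limma, adjusted p = 0.0841).

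The compartments were compared by the ratio of such genes within each library, which does not depend on the scaling of libraries. Hspa5 and Hsp90b1 were chosen with their values known, so the ratios are a description with no test. The ratio of Hspa5 to Hspa8 was 1.83, 1.32 and 1.57 in vehicle and 2.43, 2.40 and 2.98 in 2DG libraries, a difference of 0.73 on the log2 scale. The ratio of Hspa5 to Hspa9 was 1.68, 1.46 and 1.46 in vehicle and 2.56, 2.37 and 2.63 with 2DG, a log2 difference of 0.72. Hsp90b1 against Hsp90ab1 and against Trap1 gave log2 differences of 0.58 and 0.60. For these 4 ratios every 2DG library lay above every vehicle library. The ratio of Hspa9 to Hspa8, mitochondrion against cytosol, differed by 0.02 on the log2 scale, with overlapping groups.

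**Figure D3:**
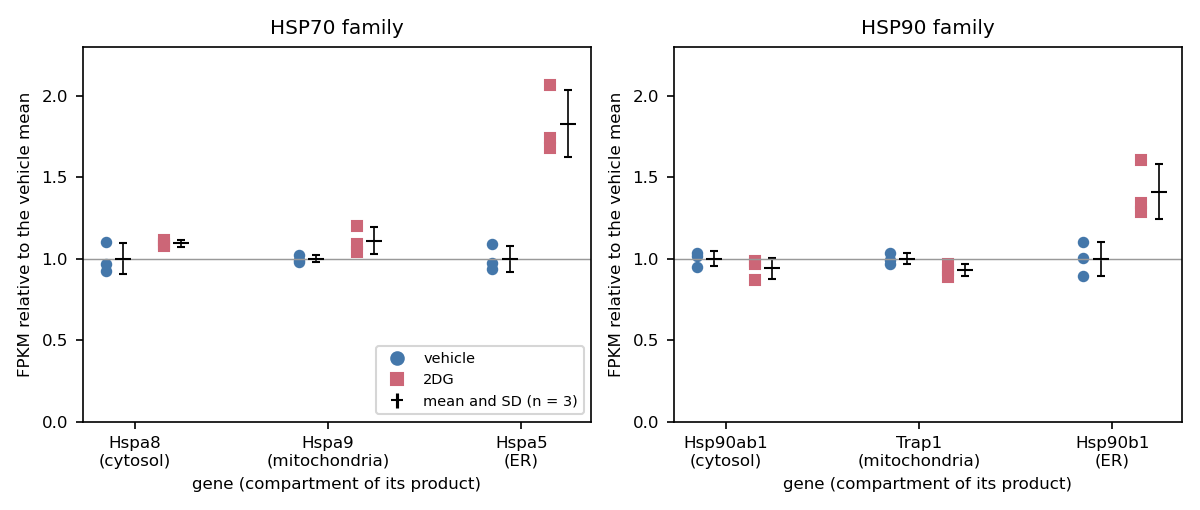
FPKM in each library relative to the vehicle mean of the same gene, for the HSP70 and the HSP90 gene of the cytosol, the mitochondrion and the ER (circles vehicle, squares 2DG, black marks mean and SD, n = 3). The 2DG squares of Hspa5 and Hsp90b1 lie above all their circles, those of Hspa9 lie above and those of Trap1 below all their circles by a smaller margin, and the Hspa8 and Hsp90ab1 squares overlap theirs.

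The Dnaja1 row stood alone among the 41 and is given by library. Dnaja1 is an HSP40 that works with Hspa8, and its gene lies at chr4:40722150-40737149 on the plus strand (GENCODE on GRCm38). The row names a microRNA gene, Mir207, beside it. It was at 9.02, 9.10 and 9.19 FPKM in vehicle, and at 241, 8.70 and 272 FPKM in 2DG replicates 1, 2 and 3. Replicates 1 and 3 were high and replicate 2 lay just below all vehicle libraries, so the groups overlapped, and the mean of the 2 high libraries was 28.5 times that of the other 4. The log2 fold change was 3.09 ± 1.18 (SE, limma, 95% interval 0.31 to 5.88) and did not pass the test (limma, adjusted p = 0.232). Without 2DG replicate 2 it was 4.67 with an adjusted p of 9.17e-06 (limma), so that this 1 library decides the call.

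The mature microRNA is shown because its letters lie inside the locus that the row measures, with the seed (bases 2 to 8) in capitals.

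mmu-miR-207: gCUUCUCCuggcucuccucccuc

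RefSeq places it at chr4:40722968-40722990 (GRCm38.p6, plus strand) within a hairpin of 79 bases. Against the 10 GENCODE transcripts of Dnaja1, the hairpin overlapped an exon of 4 in part, by 51 to 74 bases. It lay in an intron of 3 and outside 3. FPKM divides by length, so a fragment assigned to so short a gene weighs far more than one assigned to Dnaja1, and the row gives no means to separate both.

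Other rows of this kind also swung between libraries. Of 41 tested rows that name a microRNA beside another gene, the highest library was at least 10 times the lowest in 14 (34.1%), against 52 of 10004 tested rows with no small RNA (0.520%). The highest library of these 14 rows was a vehicle library in 6 and a 2DG library in 8. The part of the microRNA in the Dnaja1 values was not tested.

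**Figure D4:**
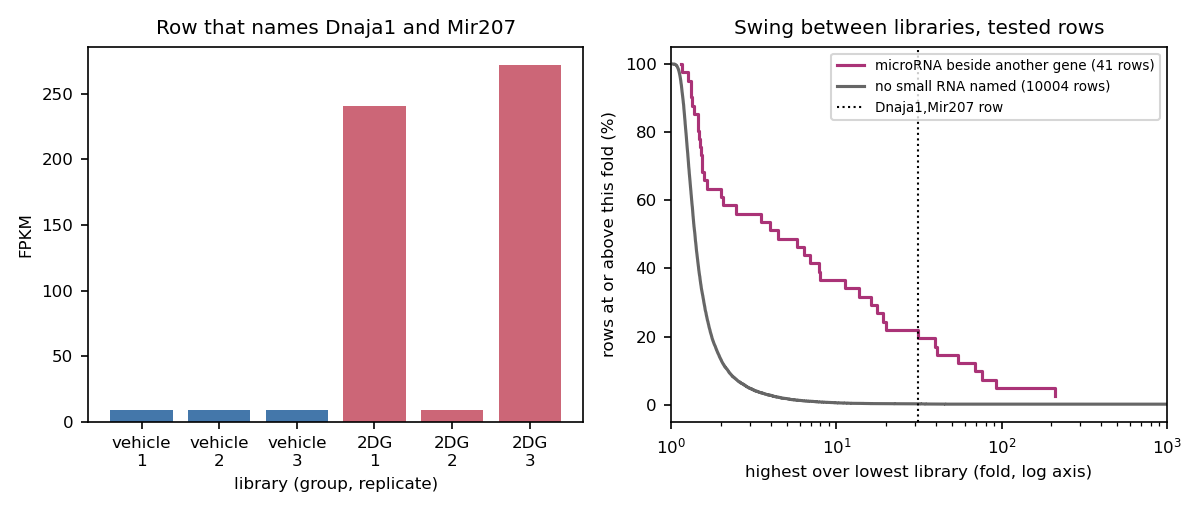
Left, FPKM of the row naming Dnaja1 and Mir207 in each library (bars start at 0): 2DG replicates 1 and 3 reach 241 and 272 FPKM and the other 4 libraries lie at about 9. Right, percent of tested rows whose highest library exceeds the lowest by at least the fold on the log axis, for 41 rows naming a microRNA beside another gene and 10004 rows naming no small RNA, with the Dnaja1 row as a dotted line.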

How the data were processed

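Processed values of 6 RNA libraries were used, 3 per group. The submitters' processing notes name Cuffdiff 2.2.1.3, Cuffnorm 2.2.1.1, TopHat2 2.1.0 and Cufflinks 2.2.1.0, with build mm10; the settings used were not given in the sources used here, nor was the annotation. Per the file headers, the deposited values are FPKM of each locus, and their quartiles show that the libraries had been scaled to each other. No counts can be had from them, near-identical copies may share reads, and Rn45s stood at 12874 and 7186 FPKM in both replicate 1 libraries and at 0 in the others.

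Loci whose mean over the libraries reached 1 FPKM were fitted with limma 3.58.1 (R 4.3.3) on log2(FPKM + 1), group as the only term, eBayes with a trend, two-sided, adjusted by Benjamini-Hochberg over all of them at 0.05. The pseudocount of 1 understates changes of low genes. The code was tested on simulated data. Groups come from the labels' treatment. Members, roles and lists were chosen with earlier results of these data known. Genes named with full statistics are a fixed set, the member of smallest p and of largest change in each role, and related genes past the threshold; Stip1, Trap1, Bag3, Hspa5 and Hsp90b1 were added after their values were seen. Pfdn6 was matched through a synonym. Of the T cell and Th17 markers, 1 is not reported here. Coordinates and exons come from GENCODE and sequences from RefSeq, both on GRCm38, which mm10 denotes. Alternatives covered pseudocount, filter, scaling, loci tested, fit and single libraries. Figures used matplotlib 3.10.9.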

Additional observations from a re-analysis of the deposited data

How the results depend on the processing

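Over 19 alternatives (6 leave out 1 library each), the number of members lower with 2DG was 0 throughout. The number higher was 0 in every alternative but 1: leaving out single libraries gave 0 to 1, the 1 being the Dnaja1 row without 2DG replicate 2. The median log2 fold change of the members lay between -0.05 and 0.03. The count of related chaperone genes called (1, Dnajc3) was 0 with no filter on low values, with libraries set to an equal sum, with the replicate block and with replicates 2 and 3 only, and 0 to 1 when single libraries were left out. It was 2 (Dnajc3 and the ER gene Hsp90b1) with small RNA genes left out and with robust eBayes. The no-filter fit called 1 of 23203 loci, so its counts of 0 say little. Other alternatives also called fewer loci than the 278 of the main fit. These were 71 with replicates 2 and 3 only, 157 with an equal sum, and 79 to 167 when single libraries were left out. Counts of 0 among so few members under these settings add little as well. Deviations of libraries that share a title number correlated at -0.08, 0.45 and -0.24 for replicates 1, 2 and 3. Those of libraries with different title numbers correlated at -0.38 to 0.47. The numbers were not taken as pairs in the main fit, but so few correlations cannot settle whether they mark pairs. With the replicate block, which treats them as pairs, 101 loci were called in place of 278. Of 303 comparisons of named members with their reported value, 18 turned an uncalled sign (Tcp1, Lonp1, Hspd1, Dnajb1, Hspe1 and Hsp90aa1), and only Dnaja1 gained a call. Leaving out rows that name a microRNA, chosen after seeing the data, gave 0 members called in either direction. Hspa1a, Hspa1b and Hspb1 lie below 1 FPKM, and of these low levels no difference can be read.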

Other observations

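Levels of the members also differed between libraries of a group. 2DG replicate 3 was the highest of its group for 26 of the 37 tested genes other than Dnaja1, and 2DG replicate 2 the lowest for 22. In the TRiC genes this held for 8 of 8 and 6 of 8. The deviation of each gene from its mean over all 6 libraries was also taken, for the 38 tested members with Dnaja1. Its median was 0.08 on the log2 scale in 2DG replicate 3 and -0.05 in 2DG replicate 2. Among vehicle libraries replicate 3 was highest for 14, replicate 2 for 12 and replicate 1 for 11. The same counts were not made over all tested loci.

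Among chaperone genes of the wider list, 3 that did not pass the test are given here, chosen after their values were seen. Spg7, a subunit of the inner-membrane protease m-AAA, was at 26.4, 27.1 and 24.0 FPKM in vehicle and 19.9, 21.3 and 20.3 FPKM with 2DG (limma, adjusted p = 0.0919). Pmpca, which helps to cleave import sequences, was at 56.2, 56.9 and 55.4 FPKM in vehicle and 45.3, 48.1 and 49.1 FPKM with 2DG (limma, adjusted p = 0.129). Bag2, a regulator of the ubiquitin ligase CHIP, was at 6.84, 6.47 and 7.79 FPKM in vehicle and 8.38, 10.1 and 9.76 FPKM with 2DG (limma, adjusted p = 0.133). In each of these 3 genes the groups were apart. Of the 71 tested genes of the wider list, 6 lay higher and 7 lower with 2DG without overlap. The shares of all tested loci were 11.9% and 11.8%.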
